A study of Homo sapiens with 18 samples.

Results

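The clustered histone genes are taken here as those whose human symbols start with HIST1, HIST2, HIST3 or HIST4. The histone class (H1, H2A, H2B, H3 or H4) follows in the symbol. Most are replication-dependent, but the rule also takes in some pseudogenes and genes known from testis. Symbols that end in PS and a number, which mark pseudogenes, were left out, and 75 of the 58870 genes in the deposited table remained. They comprise 6 genes for H1, 17 for H2A, 22 for H2B, 15 for H3 and 15 for H4. In the GENCODE 29 annotation of hg38, 55 of them lie in the HIST1 cluster on chromosome 6 (positions 25726132 to 27893843). The 15 HIST2 genes lie on chromosome 1 between positions 121108210 and 149887916, the 4 HIST3 genes on chromosome 1 between 228424845 and 228464626, and the single HIST4 gene on chromosome 12 (14767999 to 14771131). The annotation calls 70 of them protein-coding and gives 5 a pseudogene type (HIST2H2BA, HIST2H2BB, HIST2H2BD, HIST3H2BA and HIST2H3DP1).

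The sequenced RNA came from NCI-H295R, an established human adrenocortical carcinoma line, so every value below comes from 1 cell line. There were 6 groups of 3 biological replicates each, all harvested at 48 h. STA9090 (ganetespib) inhibits the chaperone HSP90, PIK75 inhibits phosphoinositide 3-kinase (PI3K), and BGT226 inhibits both PI3K and mTOR. Treated cells were given 20 nM of a single agent (STA9090, PIK75 or BGT226) or a pair, in which STA9090 was joined by either PIK75 or BGT226, and the remaining group was left untreated. How the dose was divided between the agents of a combination, and whether untreated cells received a vehicle, is not given in the sources used here.

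Nucleosomes wrap DNA around a core of H2A, H2B, H3 and H4, and the linker histone H1 binds the DNA between them. Cells make most of this protein during S phase, when new DNA must be packaged, and the clustered genes are transcribed mainly then, under the coactivator NPAT. Their mRNAs have no poly(A) tail and end just after a conserved stem-loop, which the stem-loop binding protein SLBP holds through processing, translation and decay. When DNA synthesis stops, these mRNAs are degraded quickly. Histones encoded outside the clusters, such as H3.3 and H2A.Z, are made through the cell cycle from ordinary polyadenylated mRNAs.

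The stem-loop is shown because it is the element that sets these mRNAs apart from nearly all others. A search of the GENCODE 29 transcripts for a stem arm GGNNCT, a loop TNTN and a stem arm AGNNCC in a row, read on the transcript strand with all 6 stem positions paired, found it in 34 of the 75 genes and in 22 of 19870 other protein-coding genes (0.111%). Among the protein-coding clustered genes it was present in 32 of the 36 whose transcript model runs past the stop codon, and in 0 of the 34 whose model ends there. A pair of G and T was allowed, and the form in HIST1H2AG and HIST2H2BD holds one. The letters found were the following, with the unpaired loop in capitals, and no match says only that these letters are not in the annotated transcript.
In 18 genes for H2A, H2B and H3: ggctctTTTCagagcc
In HIST1H4B, HIST1H4E, HIST1H4H, HIST1H4J and HIST4H4: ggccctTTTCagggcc
In HIST1H2BC, HIST1H2BD, HIST1H2BF, HIST1H3G and HIST3H3: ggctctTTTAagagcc
In HIST1H4I, HIST2H4A and HIST2H4B: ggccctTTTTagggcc
In HIST1H2AG and HIST2H2BD: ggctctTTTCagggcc
In HIST1H3E: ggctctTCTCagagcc

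Upstream of the genes, RefSeq windows of 250 bases before the start site (build GRCh38.p14) were matched for 60 of the 75, and 18 of these share bases with the window of another clustered gene. Many of these genes lie head to head, but HIST1H2AD and HIST1H3D lie on the same strand and were matched to the same window. On either strand, the octamer ATTTGCAT, the binding element of the factor OCT1 in H2B promoters, was in 9 of 13 H2B windows and 11 of 16 H2A windows, against 1.63% of all 35116 RefSeq windows. It was in 1 of 12 H3 windows and in 0 of the 6 H1 and 0 of the 13 H4 windows. The CCAAT box, searched as CCAAT on either strand, was in every H1, H2A, H2B and H3 window matched and in 3 of 13 H4 windows, against 32.0% of all windows. TATAAA was in 40 of the 60 (66.7%), against 10.7% of all windows. Matches of different motifs overlapped in 0 of the 60 windows and in 40 of all windows, and a match describes letters only. An H2B promoter from each of the large clusters and an H4 promoter are printed because their genes are described below, with octamer, CCAAT and TATAAA matches in capitals. The H4 window holds none of the 3.
HIST1H2BH, chr6:26251364-26251613, + strand: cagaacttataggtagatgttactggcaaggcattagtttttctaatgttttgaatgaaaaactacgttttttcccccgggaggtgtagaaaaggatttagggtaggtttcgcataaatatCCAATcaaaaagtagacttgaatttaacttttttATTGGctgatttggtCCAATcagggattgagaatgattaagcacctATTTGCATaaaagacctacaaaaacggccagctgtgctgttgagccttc
HIST2H2BF, chr1:149812371-149812620, − strand: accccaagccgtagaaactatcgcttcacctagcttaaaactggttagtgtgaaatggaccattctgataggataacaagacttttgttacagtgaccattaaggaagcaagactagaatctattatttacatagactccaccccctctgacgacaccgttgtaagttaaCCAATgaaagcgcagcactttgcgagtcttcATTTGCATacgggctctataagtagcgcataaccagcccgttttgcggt
HIST1H4H, chr6:26285535-26285784, − strand: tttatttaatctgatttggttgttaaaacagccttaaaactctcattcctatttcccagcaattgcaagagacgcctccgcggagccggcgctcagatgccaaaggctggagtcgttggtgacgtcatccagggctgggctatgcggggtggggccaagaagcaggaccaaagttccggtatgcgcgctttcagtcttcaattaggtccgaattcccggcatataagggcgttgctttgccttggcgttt

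The 18 libraries held 10237016 to 21133760 rounded counts, and 1.214% to 3.009% of these lay in the clustered histone genes. Levels are given as CPM, counts scaled to a common library size with TMM factors, and differences as log2 fold changes. CPM is a share of each library, so in these bulk samples fewer cells in S phase and less histone RNA per cell cannot be told apart. Of the 9 adrenal cortex markers, 7 passed the filter on low counts, and NR5A1, the transcription factor that defines steroidogenic cells, was at 368 to 659 CPM in every library, while CYP11B1 and CYP11B2 were at or near 0. Of 14 markers of fibroblasts, endothelium, leukocytes and other epithelia, COL1A1 reached the highest level, at 10.8 CPM, and CDH5, CD3E and KRT5 had 0 counts. The adrenal markers moved with the groups that received PIK75: the 9 summed to 1294 to 1485 CPM with PIK75 and 1000 to 1046 CPM with STA9090 and PIK75, against 2092 to 2517 CPM in untreated cells, and the 3 other treated groups overlapped the untreated range. The 4 fibroblast markers summed to 0.714 to 1.26 CPM with STA9090 and PIK75, against 8.03 to 11 CPM in untreated cells. The part of these shifts in the histone values was not tested.

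Near copies limit what can be said of single genes. RSEM, which made the deposited estimated counts, divides reads that match several genes, and 46.57% of the values of the 68 clustered genes with a mean of at least 10 counts were not whole numbers, against 16.21% for 14769 other genes. Cut into stretches of 101 bases, the length of 1 read, 47 of the 75 genes shared no stretch with another gene, 15 shared over 50% and 5 shared all. The counts were therefore also summed by class, a sum that does not depend on how reads were divided between genes of the same class. A class sum still depends on how reads were divided with genes outside the class. HIST1H3J overlaps HIST1H2AM and HIST1H2AL overlaps HIST1H2BN on the same strand, HIST1H2AD and HIST1H3D both overlap AL031777.3, HIST2H2BB overlaps AC239798.4, and HIST1H2BK shares stretches with H2BFS. HIST2H2BD shares 15.29% of its stretches with HIST2H2BC, which overlaps it on the opposite strand and is not among the 75. Of the 75 genes, 68 passed the filter on low counts (5 for H1, 16 for H2A, 21 for H2B, 13 for H3 and 13 for H4). The 7 others were HIST1H1T and HIST1H2BA, which are known from testis, with 88 and 103 counts over all libraries, HIST1H2AA with 24, HIST3H3 with 7, HIST2H3DP1 with 53, HIST1H4G with 12 and HIST1H4L with 0.

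Summed over all 75 genes, clustered histone RNA was lowest in cells given STA9090 with BGT226, intermediate after BGT226, PIK75 or STA9090 with PIK75, and near the untreated level after STA9090 alone. The total was 20113, 25895 and 31172 CPM in the STA9090 replicates 1, 2 and 3, 16872, 17864 and 22572 CPM with PIK75, and 17452, 18549 and 17163 CPM with BGT226. It was 17648, 16719 and 15380 CPM with STA9090 and PIK75, 12644, 11621 and 12197 CPM with STA9090 and BGT226, and 24124, 31558 and 20621 CPM in untreated cells. All 3 libraries of STA9090 with BGT226 lay below every other library, and those of BGT226 and of STA9090 with PIK75 lay below every untreated one. Replicate 3 of PIK75 stood apart from the other PIK75 libraries, inside the untreated range, and without it the PIK75 ratio below would be -0.55. Without untreated replicate 2, the highest untreated library, that ratio would be -0.23 and the BGT226 ratio -0.34. The ratio of means, as log2 against untreated cells, was -1.06 with STA9090 and BGT226 (a total 52.2% lower), -0.62 with STA9090 and PIK75, -0.52 with BGT226, -0.41 with PIK75 and 0.02 with STA9090. STA9090 and untreated libraries varied most, with SDs of 5531 and 5585 CPM, and STA9090 with BGT226 least, with 513 CPM. Replicate 3 was the highest of the STA9090 libraries and replicate 2 the highest of the untreated ones. The sums are given as a description, with no test.

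**Figure D1:**
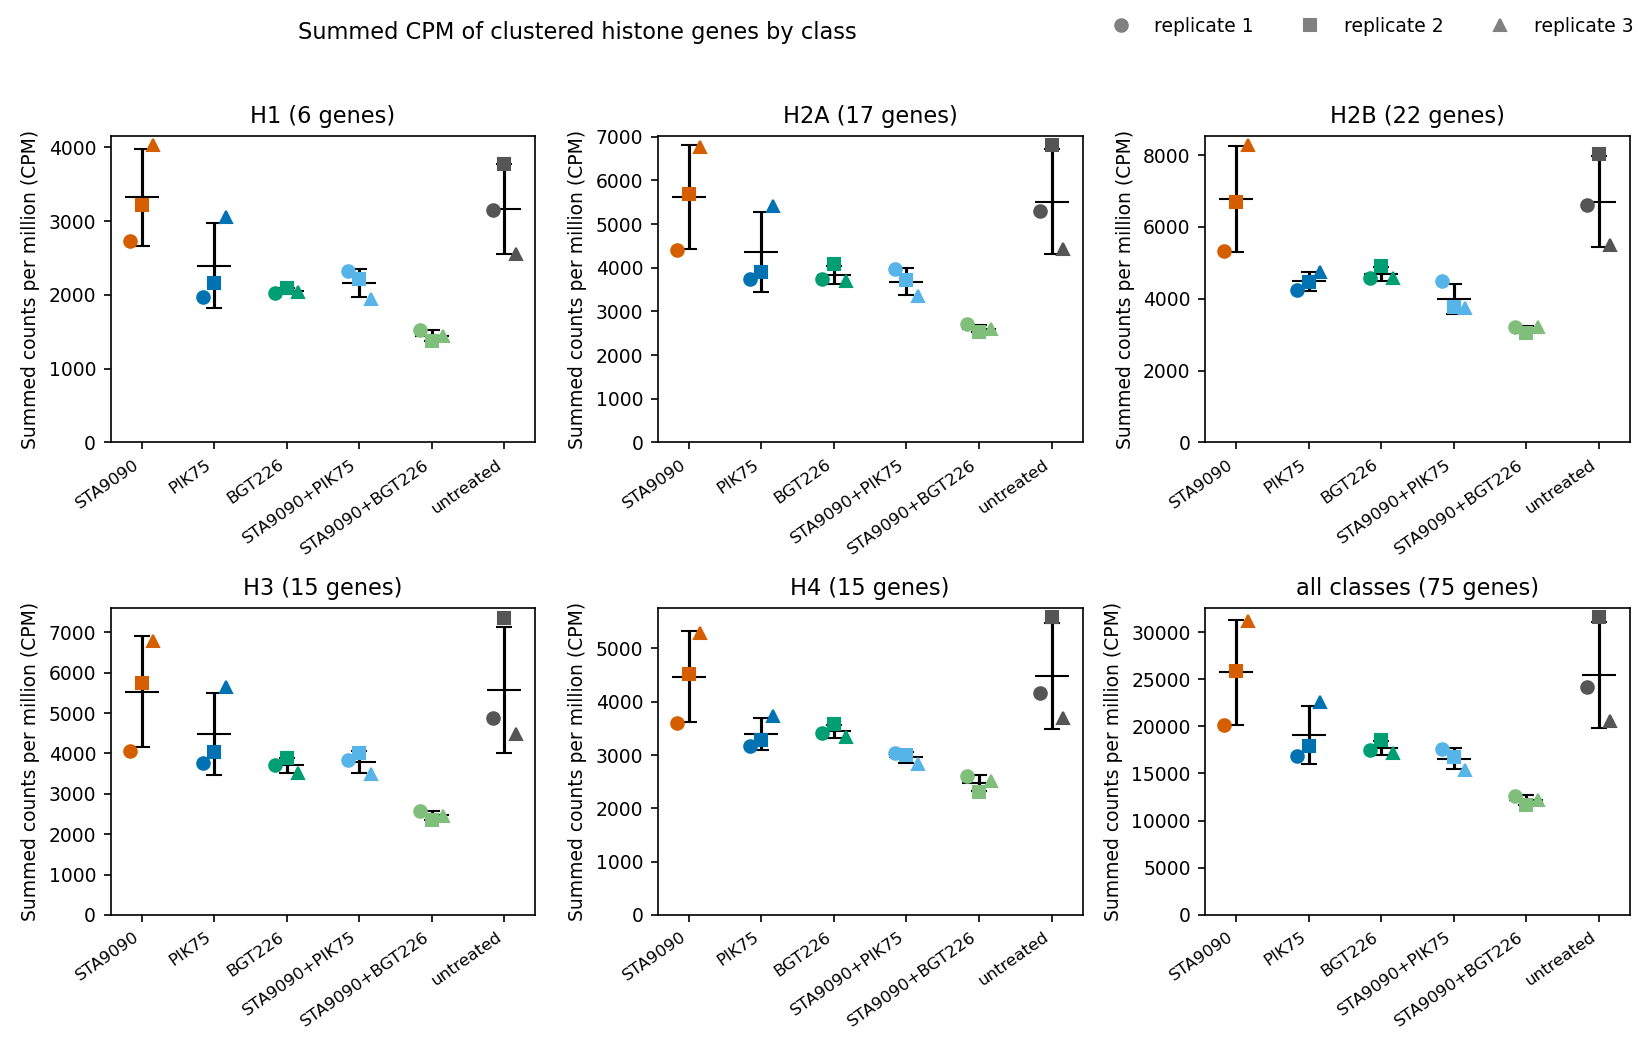
Summed CPM (vertical axes, starting at 0) of each histone class and of all 75 genes in the 6 groups, with 1 point for each library, and bars for the mean and SD of 3 replicates. The STA9090+BGT226 points lie below all untreated points in each class, from 1375 to 1525 CPM for H1 against 2553 to 3778 CPM in untreated cells.

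Linker histone H1, which binds DNA between nucleosomes, is represented by HIST1H1A to HIST1H1E, all tested, and by HIST1H1T, which did not pass the filter. The class summed to 2730, 3218 and 4029 CPM with STA9090, 1974, 2159 and 3050 CPM with PIK75 and 2032, 2100 and 2034 CPM with BGT226. It summed to 2319, 2221 and 1942 CPM with STA9090 and PIK75, 1525, 1375 and 1444 CPM with STA9090 and BGT226, and 3158, 3778 and 2553 CPM in untreated cells. BGT226 and both combinations lay below every untreated library, and PIK75 and STA9090 overlapped the untreated range. HIST1H1C, the most counted H1 gene, was at 1033, 1231 and 1577 CPM with STA9090, 671, 729 and 986 CPM with PIK75 and 706, 710 and 691 CPM with BGT226. It was at 787, 798 and 703 CPM with STA9090 and PIK75, 577, 516 and 551 CPM with STA9090 and BGT226, and 1118, 1326 and 901 CPM in untreated cells. The PIK75 values crossed the untreated ones only through replicate 3. HIST1H1C fell with STA9090 and BGT226 (log2 fold change -1.02, SE 0.15, adjusted p = 2.92e-05) and with BGT226 (log2 fold change -0.67, SE 0.15, adjusted p = 0.00275). HIST1H1E, with 370, 334 and 350 CPM in STA9090 with BGT226 against 937, 963 and 705 CPM in untreated cells, had the largest fall of the class in that group (-1.30). All 5 tested H1 genes fell with STA9090 and BGT226, with log2 fold changes of -1.0 to -1.30.

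H2A genes encode a core histone that pairs with H2B. Their sum was 4397, 5701 and 6776 CPM with STA9090, 3748, 3902 and 5405 CPM with PIK75 and 3733, 4082 and 3693 CPM with BGT226. It was 3972, 3721 and 3361 CPM with STA9090 and PIK75, 2708, 2531 and 2587 CPM with STA9090 and BGT226, and 5301, 6803 and 4429 CPM in untreated cells. PIK75 replicate 3 again stood above replicates 1 and 2 of its group and inside the untreated range, while BGT226 and both combinations stayed below all untreated libraries. HIST1H2AG was at 473, 694 and 801 CPM with STA9090, 469, 472 and 662 CPM with PIK75 and 431, 459 and 427 CPM with BGT226. The same gene was at 478, 430 and 383 CPM with STA9090 and PIK75, 253, 282 and 255 CPM with STA9090 and BGT226, and 659, 883 and 562 CPM in untreated cells. It fell in both combination groups and with BGT226, most with STA9090 and BGT226 (log2 fold change -1.41, SE 0.18, adjusted p = 3.12e-06), and the BGT226 call was lost without untreated replicate 2 (adjusted p = 0.0521). HIST1H2AE, at 253, 261 and 249 CPM in STA9090 with BGT226 and 307, 304 and 351 CPM in PIK75 against 513, 586 and 383 CPM in untreated cells, fell in both (-0.96 and -0.62). The near copies HIST2H2AA3 and HIST2H2AA4 summed to 701 ± 73.2 CPM with STA9090 and BGT226 and 1242 ± 305 CPM in untreated cells (SD, n = 3 each).

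H2B genes form the largest class and, with H2A, the outer part of the nucleosome core. Their sum was 5329, 6707 and 8285 CPM with STA9090, 4232, 4470 and 4754 CPM with PIK75 and 4568, 4900 and 4584 CPM with BGT226. It was 4486, 3762 and 3751 CPM with STA9090 and PIK75, 3224, 3049 and 3203 CPM with STA9090 and BGT226, and 6605, 8030 and 5484 CPM in untreated cells. H2B was the class in which the PIK75 libraries all lay below the untreated ones, with replicate 3 close to the other two. In the other 4 classes they overlapped. HIST1H2BC, the most counted of the 75 genes, was at 1144, 1362 and 1712 CPM with STA9090, 740, 830 and 691 CPM with PIK75 and 790, 877 and 809 CPM with BGT226. It was at 953, 747 and 789 CPM with STA9090 and PIK75, 599, 580 and 618 CPM with STA9090 and BGT226, and 1220, 1442 and 982 CPM in untreated cells. It fell in 4 groups, with log2 fold changes of -0.69 for PIK75, -0.56 for BGT226, -0.55 for STA9090 with PIK75 and -1.02 for STA9090 with BGT226, and all 4 calls held under every alternative run. HIST1H2BF was at 451, 468 and 468 CPM with PIK75, 500, 526 and 492 CPM with BGT226, 447, 396 and 405 CPM with STA9090 and PIK75, 384, 349 and 384 CPM with STA9090 and BGT226, and 868, 986 and 702 CPM in untreated cells. Its 3 PIK75 libraries lay close together and below all untreated ones (log2 fold change -0.88, SE 0.12, adjusted p = 2.64e-05). HIST2H2BF, whose promoter is printed above, was at 455, 499 and 586 CPM with PIK75, 648, 677 and 680 CPM with BGT226, 443, 377 and 366 CPM with STA9090 and PIK75, 440, 403 and 425 CPM with STA9090 and BGT226, and 813, 887 and 638 CPM in untreated cells. The BGT226 libraries of this gene overlapped the untreated ones (log2 fold change -0.22, SE 0.13, adjusted p = 0.23), and the other 3 groups lay below them.

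H3 genes encode the core histone whose tail carries many of the known chromatin marks. Their sum was 4061, 5752 and 6786 CPM with STA9090, 3756, 4044 and 5639 CPM with PIK75 and 3714, 3885 and 3515 CPM with BGT226. It was 3838, 4016 and 3493 CPM with STA9090 and PIK75, 2582, 2353 and 2454 CPM with STA9090 and BGT226, and 4888, 7352 and 4469 CPM in untreated cells. This class had the largest difference of its sum with STA9090 and BGT226 (55.8% lower) and the widest untreated spread, with replicate 2 far above the others. HIST1H3G was at 896, 1176 and 1397 CPM with STA9090, 625, 640 and 874 CPM with PIK75 and 549, 564 and 508 CPM with BGT226. It was at 600, 651 and 596 CPM with STA9090 and PIK75, 399, 344 and 392 CPM with STA9090 and BGT226, and 981, 1400 and 871 CPM in untreated cells. It fell with BGT226 (log2 fold change -1.0, SE 0.17, adjusted p = 0.00014) and with STA9090 and BGT226 (log2 fold change -1.52, SE 0.17, adjusted p = 7.71e-07). HIST1H3B was at 286, 284 and 264 CPM in STA9090 with BGT226 and 426, 455 and 813 CPM in PIK75, against 609, 834 and 507 CPM in untreated cells. Its PIK75 replicate 3 lay near the highest untreated library, and the difference for PIK75 did not pass (log2 fold change -0.20, SE 0.21, adjusted p = 0.559).

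H4 genes, which encode the least variable core histone, summed to 3596, 4516 and 5295 CPM with STA9090, 3162, 3290 and 3724 CPM with PIK75 and 3405, 3584 and 3337 CPM with BGT226. They summed to 3033, 3000 and 2834 CPM with STA9090 and PIK75, 2606, 2314 and 2508 CPM with STA9090 and BGT226, and 4173, 5595 and 3686 CPM in untreated cells. In STA9090 with BGT226 the difference of the sum was the smallest of the 5 classes (44.8% lower), still without overlap. HIST1H4H was at 564, 629 and 588 CPM with PIK75, 645, 711 and 628 CPM with BGT226, 529, 574 and 558 CPM with STA9090 and PIK75, 556, 438 and 528 CPM with STA9090 and BGT226, and 749, 1168 and 726 CPM in untreated cells. HIST1H4J was at 592, 577 and 588 CPM with PIK75, 529, 570 and 497 CPM with BGT226, 617, 627 and 575 CPM with STA9090 and PIK75, 474, 418 and 423 CPM with STA9090 and BGT226, and 713, 976 and 649 CPM in untreated cells. Both genes lay below every untreated library in these 4 groups and were called lower in each. The calls that held under every alternative run were those with STA9090 and BGT226 (log2 fold change -0.80 for HIST1H4H and -0.83 for HIST1H4J), that of HIST1H4H with STA9090 and PIK75 (-0.67) and that of HIST1H4J with BGT226 (-0.55). The other 4 calls were lost without untreated replicate 2, with adjusted p of 0.103 to 0.414, and 3 of these 4 also without any of the treated libraries. HIST1H4E changed less, at 450, 445 and 469 CPM with STA9090 and BGT226 against 808, 656 and 577 CPM in untreated cells (log2 fold change -0.58, SE 0.12, adjusted p = 0.000634). Per kilobase of exon, the gene with the highest mean level over the 18 libraries was HIST1H4J among H4 genes (1736 CPM per kilobase), HIST1H1C among H1 (1351), HIST2H2AA4 among H2A (1320), HIST1H3B among H3 (1252) and HIST1H2BC among H2B (1125), and HIST1H4J and HIST2H2AA4 are near copies of other genes. This order depends on the annotated length. HIST1H3G had a higher mean than HIST1H3B (747.9 against 514.6 CPM), but its exons are annotated as 2411 bases against 411.

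STA9090 alone, compared with untreated cells, changed 0 of the 68 tested genes in either direction by edgeR's quasi-likelihood test at an adjusted p under 0.05, where 1.16% of all 15787 genes tested rose and 1.68% fell. DESeq2 called 0 higher and 1 lower, where 230 and 393 of all 15787 genes tested were higher and lower. An unadjusted p under 0.05 was found for 5 of the 68, with no share over all genes to set beside it. The median log2 fold change of the 68 was 0.00, as over all genes. Class sums overlapped in all 5 classes, and their log2 ratios lay between -0.01 and 0.07. Without the filter on low counts the test called 2 higher and 5 lower, where 369 and 400 of all 31658 genes tested were higher and lower. Without untreated replicate 2 it called 1 higher, where 96 of 16136 were. Without STA9090 replicate 3 it called 1 lower, where 277 of 16202 were.

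PIK75 against untreated cells lowered 25 of the 68 genes, 13 of 21 for H2B, 3 of 5 for H1, 3 of 16 for H2A, 2 of 13 for H3 and 4 of 13 for H4, where 10.2% of all genes tested fell. 0 rose by edgeR or by DESeq2, where 8.49% of all genes tested rose by edgeR. The median log2 fold change was -0.40, against 0.00 over all genes. The largest falls among the 25 called were those of HIST2H2BA, HIST1H2BH, HIST1H2BF, HIST1H2BD, HIST1H1A and HIST3H2BB, with log2 fold changes of -1.09 to -0.80. HIST2H2BA is annotated as a pseudogene. HIST1H2BH, whose promoter carries the octamer printed above, was at 192, 203 and 187 CPM with PIK75 and 359, 457 and 291 CPM in untreated cells, with no overlap (log2 fold change -0.93, SE 0.15, adjusted p = 0.000144). HIST1H1A was at 63.5, 67.4 and 74.3 CPM with PIK75 and 114, 151 and 96.4 CPM in untreated cells, again with no overlap (log2 fold change -0.82, SE 0.14, adjusted p = 0.000238). These 6 genes, with HIST1H2AC, HIST1H2AE, HIST1H2BC, HIST1H2BG, HIST2H2BB and HIST2H2BF, made up the 12 that passed under every alternative run. The count was 12 without untreated replicate 2, 15 without PIK75 replicate 1, 15 without PIK75 replicate 2, 33 without PIK75 replicate 3 and 49 without the filter on low counts. Over all genes tested, the falls in these fits were 1390 of 16136, 1364 of 16114, 1222 of 16175, 1251 of 16179 and 1691 of 31658. Without PIK75 replicate 1, 2 genes were called higher, and without untreated replicate 2, 1 was, where 1085 and 1257 of all genes tested were.

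BGT226 lowered 39 of the 68 genes relative to untreated cells, where 15.7% of all genes tested fell, and raised 1, where 12.8% rose. The falls took in 4 of 5 H1, 10 of 16 H2A, 13 of 21 H2B, 7 of 13 H3 and 5 of 13 H4 genes, and the median log2 fold change was -0.54 against 0.01 over all genes. Of the 39, 38 lie in HIST1, of whose 50 tested genes they are the larger part, and 1 in HIST2, where 14 genes were tested. The difference between loci was not tested. Among the 39 called, HIST1H3G, HIST1H2AB, HIST1H3I, HIST1H3J, HIST1H2BI and HIST1H2BJ had the largest falls, with log2 fold changes of -1.0 to -0.79. HIST1H2AB was at 79.2, 84.6 and 76 CPM with BGT226 and 132, 212 and 125 CPM in untreated cells, with no overlap (log2 fold change -0.97, SE 0.23, adjusted p = 0.0031). The gene that rose was HIST2H2BD, an H2B pseudogene, at 23.6, 25.2 and 23.6 CPM with BGT226 and 19.4, 14.9 and 17.6 CPM in untreated cells (log2 fold change 0.48, SE 0.09, adjusted p = 0.000592 by edgeR). It shares 15.29% of its stretches with HIST2H2BC, and 100% of its values were not whole numbers. The part of divided reads in its rises was not tested. Without untreated replicate 2 the count of falls was 20, where 1966 of all 16136 genes tested fell. In that fit HIST1H2BJ was at the threshold (adjusted p = 0.05 by edgeR).

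STA9090 with PIK75 lowered 49 of the 68 genes relative to untreated cells, where 20.1% of all genes tested fell, and raised 2, where 18.3% rose. H2B led by count with 19 of 21, beside 4 of 5 H1, 12 of 16 H2A, 5 of 13 H3 and 9 of 13 H4 genes, and the median log2 fold change was -0.64 against 0.01 over all genes. The largest falls were those of HIST3H2BA, HIST2H2BA, HIST3H2BB, HIST1H2BD, HIST1H2AJ and HIST1H2BH (log2 fold changes of -1.38 to -1.08), 5 of them H2B genes and the first 2 annotated as pseudogenes. HIST3H2BB was at 19, 18.8 and 16.1 CPM with STA9090 and PIK75 and 38.6, 53.4 and 37 CPM in untreated cells, with no overlap (log2 fold change -1.26, SE 0.14, adjusted p = 5.95e-07). HIST1H2BD was at 213, 192 and 197 CPM with STA9090 and PIK75 and 416, 591 and 373 CPM in untreated cells, also without overlap (log2 fold change -1.20, SE 0.15, adjusted p = 4.29e-06). The 2 that rose were HIST1H3I (log2 fold change 0.40, SE 0.15, adjusted p = 0.0488) and HIST2H2BD (log2 fold change 0.30, SE 0.09, adjusted p = 0.0157). Neither rise held when any one of several libraries was left out, untreated replicate 1, untreated replicate 3 or any of the 3 combination libraries for HIST1H3I, and untreated replicate 2 or combination replicate 1 for HIST2H2BD. Of the 49 falls, 32 held under every alternative run.

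STA9090 with BGT226 lowered 61 of the 68 genes relative to untreated cells, where 20.4% of all genes tested fell, and raised 1, where 19.4% rose. All 5 H1, 15 of 16 H2A, 19 of 21 H2B, 12 of 13 H3 and 10 of 13 H4 genes fell, the median log2 fold change was -1.10 against 0.03 over all genes, and 58 of the falls held under every alternative run. Among the 61 called, HIST1H2AD, HIST1H2AB, HIST1H2BI, HIST1H2AJ, HIST1H3G and HIST1H2AH fell most, with log2 fold changes of -1.93 to -1.50. HIST1H2AB was at 43.7, 51.8 and 42.6 CPM with STA9090 and BGT226 and 132, 212 and 125 CPM in untreated cells, with every treated library below every untreated one (log2 fold change -1.76, SE 0.23, adjusted p = 6.93e-06). HIST1H2BI was at 36.8, 44.4 and 40.4 CPM with STA9090 and BGT226 and 124, 162 and 108 CPM in untreated cells, likewise without overlap (log2 fold change -1.70, SE 0.17, adjusted p = 2.14e-07). The call of HIST1H2AD, which overlaps the gene AL031777.3 on the same strand, was lost without untreated replicate 1 (adjusted p = 0.14) and without combination replicate 1 (adjusted p = 0.0717). HIST2H2BD rose, at 26.1, 22.3 and 26.3 CPM with STA9090 and BGT226 and 19.4, 14.9 and 17.6 CPM in untreated cells (log2 fold change 0.53, SE 0.09, adjusted p = 0.000139). The 6 genes that did not pass were HIST3H2A, HIST3H2BA, HIST2H3A, HIST2H4B, HIST4H4 and HIST1H4K, and for HIST2H3A, HIST2H4B and HIST1H4K the counts are divided with a near copy.

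**Figure D2:**
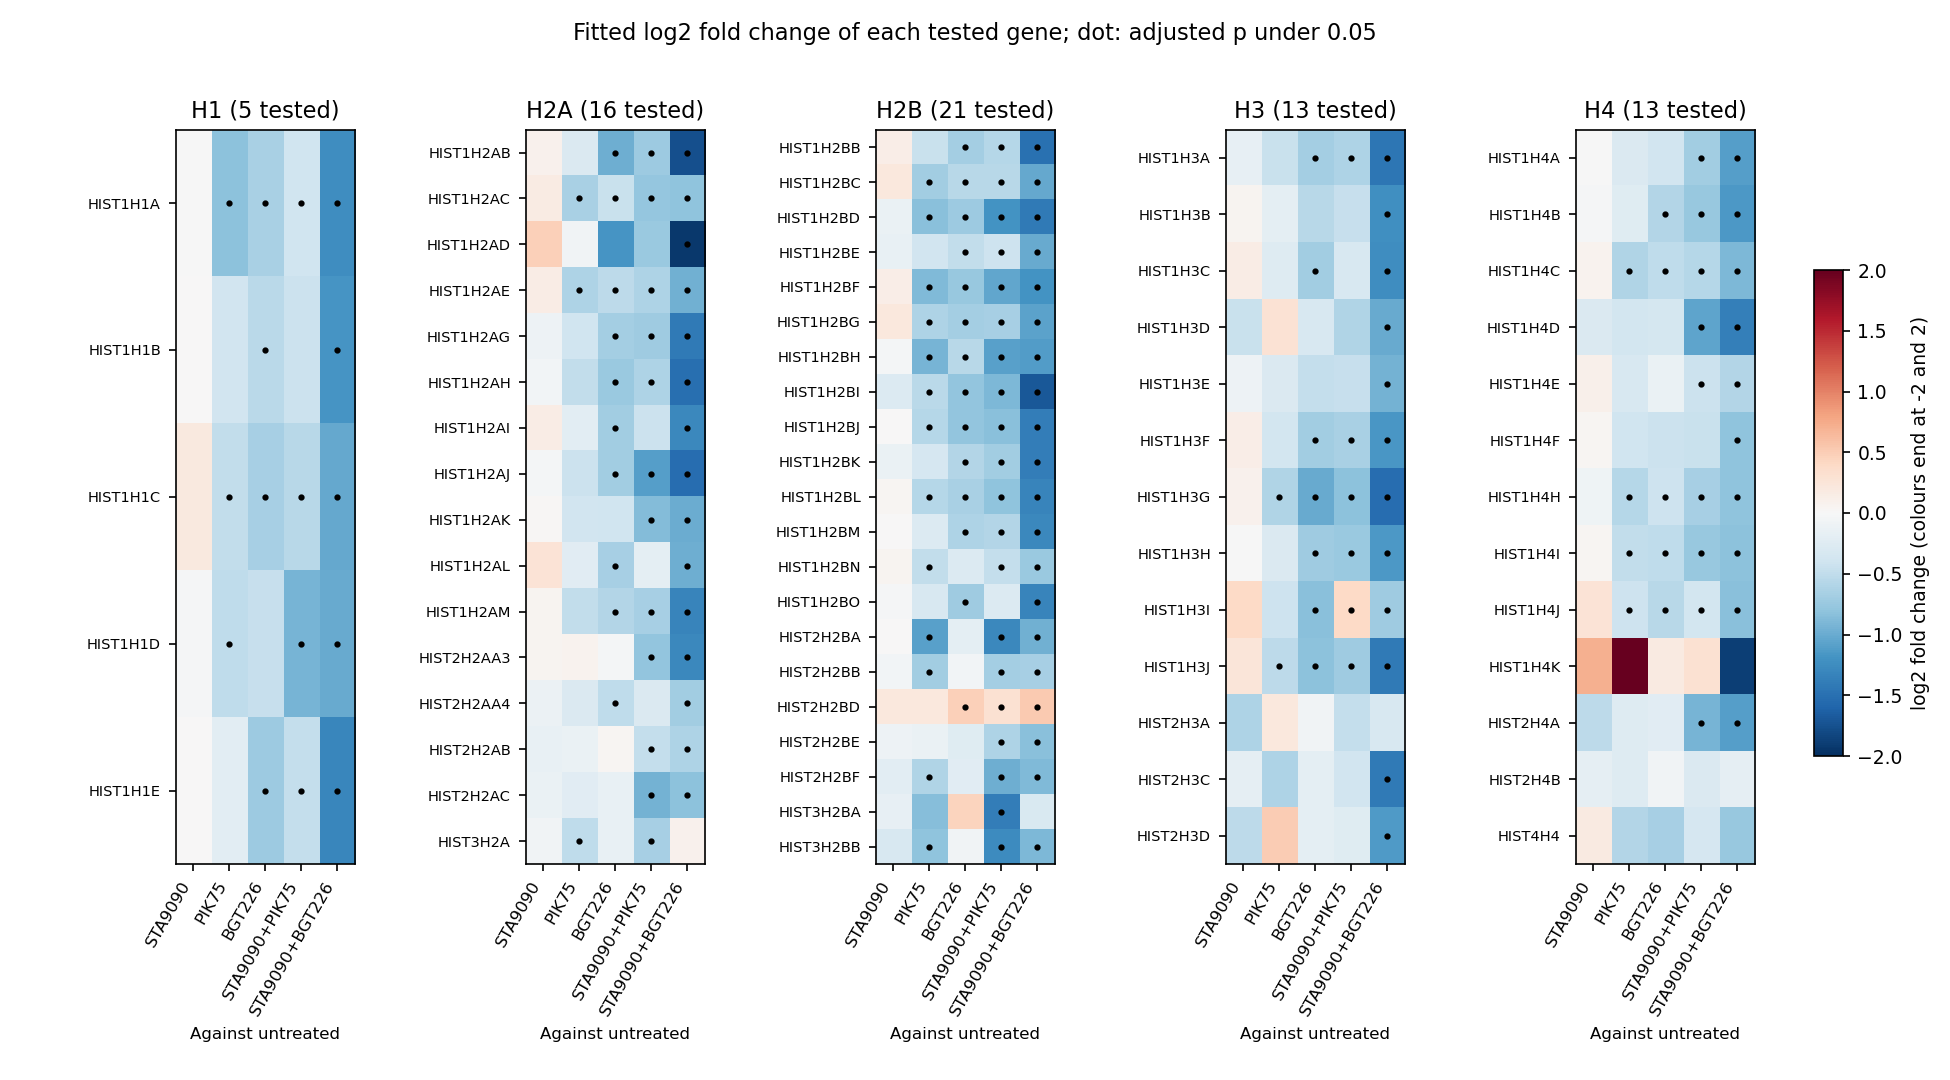
Fitted log2 fold change (colour) of the 68 tested genes, in rows by class, for the 5 treated groups, each against untreated cells, in columns, with a dot where the adjusted p was under 0.05. No dots appear for STA9090, 25 genes have one for PIK75, and 62 have one for STA9090+BGT226.

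By locus, the sums of HIST1, HIST2 and HIST3 did not follow the same order across groups. HIST1 summed to 21648 ± 4728 CPM with STA9090, 15172 ± 2369 CPM with PIK75, 13698 ± 573 CPM with BGT226, 13471 ± 1016 CPM with STA9090 and PIK75, 9545 ± 334 CPM with STA9090 and BGT226, and 20736 ± 4585 CPM in untreated cells (SD, n = 3 each). HIST2 summed to 4009 ± 787 CPM with STA9090, 3881 ± 672 CPM with PIK75, 3949 ± 166 CPM with BGT226, 3070 ± 136 CPM with STA9090 and PIK75, 2549 ± 173 CPM with STA9090 and BGT226, and 4619 ± 984 CPM in untreated cells. The HIST2 means of STA9090, PIK75 and BGT226 lay close together and within 1 untreated SD of the untreated mean. HIST3, a small cluster with low counts, summed to 44.1, 46 and 53.5 CPM with PIK75, 72.4, 73.7 and 72 CPM with BGT226, 38, 41.7 and 35.2 CPM with STA9090 and PIK75, 62.8, 52.6 and 57.9 CPM with STA9090 and BGT226, and 68.3, 95 and 65.9 CPM in untreated cells. In HIST3 the 2 groups given PIK75 had the lowest means and BGT226 lay inside the untreated range, while in HIST1 the lowest mean was that of STA9090 with BGT226. HIST4H4, the only HIST4 gene, did not pass in the 5 comparisons with untreated cells, with adjusted p of 0.0733 to 0.823 by edgeR.

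**Figure D3:**
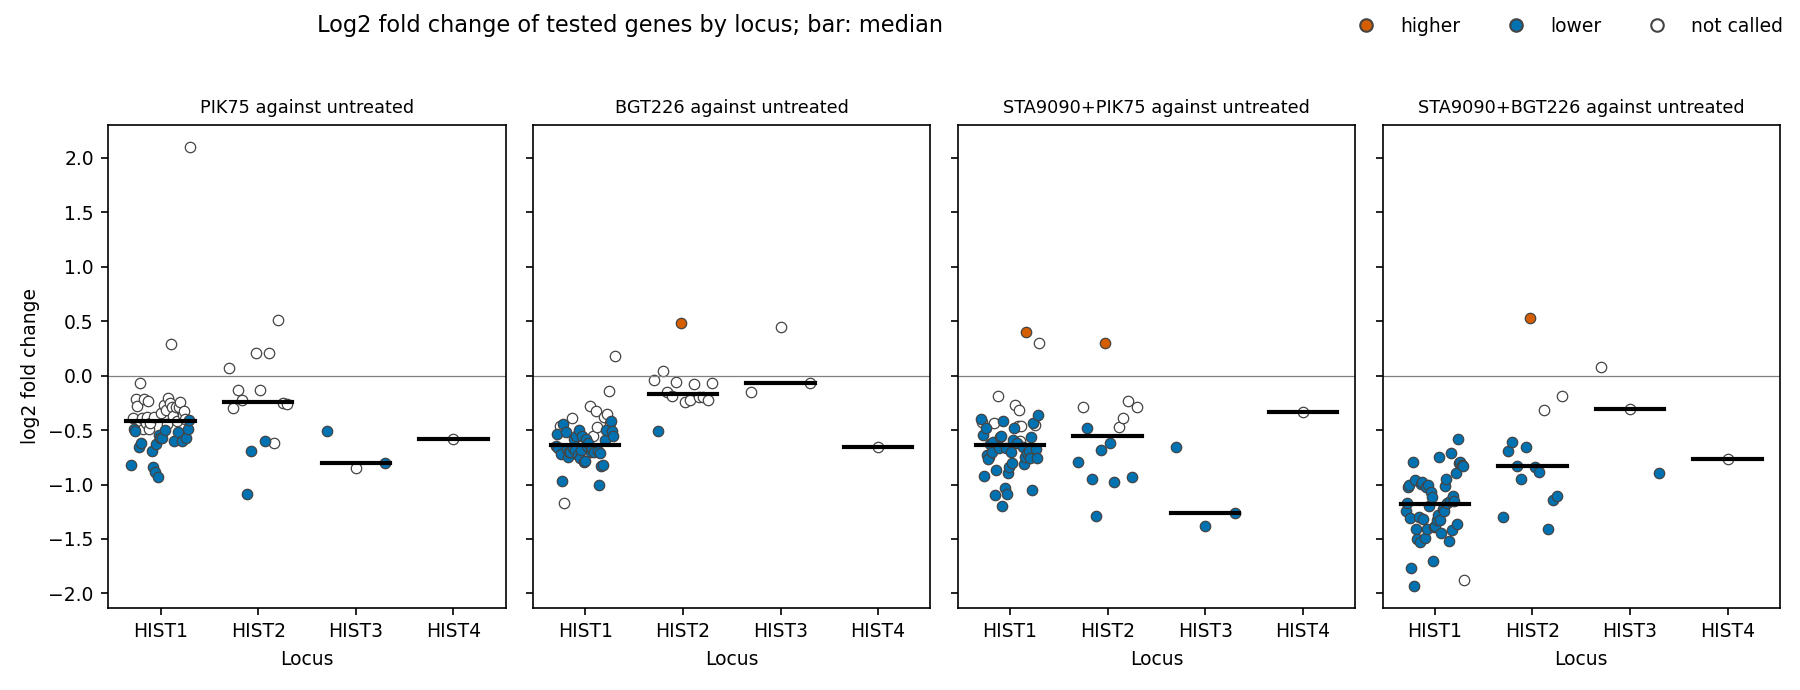
Log2 fold change (vertical axis) of each tested gene in the HIST1, HIST2, HIST3 and HIST4 loci, for 4 treated groups against untreated cells, with filled points for genes that rose or fell at an adjusted p under 0.05 and bars for medians. With BGT226 the median was -0.64 in HIST1, -0.17 in HIST2 and -0.07 in HIST3, and with STA9090+PIK75 the HIST3 median was -1.26.

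PIK75 and BGT226, the PI3K inhibitors, were then compared with each other at the shared dose of 20 nM. PIK75 gave higher values than BGT226 for 5 of the 68 genes and lower values for 6, where 16.5% and 15.5% of all genes tested were higher and lower. The 6 lower genes were all H2B genes outside HIST1: HIST3H2BA, HIST2H2BA, HIST3H2BB, HIST2H2BB, HIST2H2BF and HIST2H2BD. HIST3H2BA, HIST2H2BA, HIST2H2BB and HIST2H2BD are annotated as pseudogenes. HIST2H2BA and HIST2H2BB share 31.25% and 31.4% of their stretches with HIST2H2BF, and HIST3H2BA shares 18.6% with HIST3H2BB. Reads can thus be divided among these genes, and their calls are not independent. HIST3H2BB was at 22.6, 24.8 and 26.9 CPM with PIK75 and 43.2, 41.7 and 38.9 CPM with BGT226, with no overlap (log2 fold change -0.73, SE 0.14, adjusted p = 0.000323). HIST2H2BA was at 4.64, 6.3 and 6 CPM with PIK75 and 10.1, 11.9 and 9.74 CPM with BGT226, also without overlap (log2 fold change -0.90, SE 0.20, adjusted p = 0.00152). HIST3H2BA, HIST2H2BA, HIST3H2BB and HIST2H2BB passed under every alternative run, and HIST2H2BF and HIST2H2BD did not. The 5 higher genes were HIST2H3D, HIST1H2AB, HIST1H1E, HIST1H2AI and HIST1H2AL, and 0 of the 68 were called higher without PIK75 replicate 3, against 9 without PIK75 replicate 1, 1 without BGT226 replicate 1, 3 without BGT226 replicate 2 and 1 without BGT226 replicate 3. Over all genes tested, 1922 to 2278 were higher in these fits with 1 library left out. The counts of higher genes also grew to 15 with these groups compared alone and to 24 without the filter on low counts. In those 2 fits 2701 of all 14814 and 2612 of all 31658 genes tested were higher.

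Between the combinations, STA9090 with PIK75 was higher than STA9090 with BGT226 for 29 of the 68 genes and lower for 3, where 20.9% of all genes tested were higher and 22.4% lower. The higher genes were 4 of 5 H1, 6 of 16 H2A, 10 of 21 H2B, 8 of 13 H3 and 1 of 13 H4 genes, and 28 of them lie in HIST1. Among the 29 called, HIST1H3I, HIST1H2BO, HIST1H2AB, HIST1H2BB, HIST1H3C and HIST2H3D differed most, with log2 fold changes of 1.11 to 0.91. HIST1H3I was at 22.9, 22.7 and 22.9 CPM with STA9090 and PIK75 and 11.6, 10 and 10.3 CPM with STA9090 and BGT226, about the same in all 3 libraries of each (log2 fold change 1.11, SE 0.16, adjusted p = 1.49e-05). The 3 lower genes were all those tested in HIST3. HIST3H2A, an H2A gene, was at 17.7, 21.6 and 18.2 CPM with STA9090 and PIK75 and 35.3, 28.8 and 32.1 CPM with STA9090 and BGT226, with no overlap (log2 fold change -0.74, SE 0.15, adjusted p = 0.000596). The calls of HIST3H2BA and HIST3H2BB were lost in 4 and in all 6 of the fits that left out 1 library. The count of lower genes was 1 without STA9090+PIK75 replicate 2 or 3 or STA9090+BGT226 replicate 1 or 3, where 2951 to 3255 of all genes tested were lower. The count of higher genes was 45 without the filter on low counts and 44 with these groups compared alone, where 3365 of all 31658 and 3561 of all 15030 genes tested were higher. The class sums of STA9090 with PIK75 lay above those of STA9090 with BGT226 in all 5 classes without overlap, by 0.25 (H4) to 0.62 (H3) as log2.

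Each combination was also set against its parts, which share the libraries used above. Relative to STA9090, STA9090 with PIK75 lowered 49 of the 68 genes, where 19.8% of all genes tested fell. It raised 0 by edgeR or DESeq2, where 17.7% rose by edgeR. Relative to PIK75, STA9090 with PIK75 lowered 11 and raised 2, where 14% of all genes tested fell and 11.3% rose. HIST2H4A was at 285, 266 and 275 CPM with STA9090 and PIK75 and 382, 398 and 542 CPM with PIK75, without overlap (log2 fold change -0.68, SE 0.14, adjusted p = 0.00169). HIST1H3I was at 22.9, 22.7 and 22.9 CPM with STA9090 and PIK75 and 11.2, 12.8 and 15 CPM with PIK75, the reverse order (log2 fold change 0.82, SE 0.16, adjusted p = 0.000824). The count lower than PIK75 was 2 without PIK75 replicate 3, 7 without STA9090+PIK75 replicate 2, 4 without STA9090+PIK75 replicate 3 and 28 without the filter on low counts. Over all genes tested these counts were 1861 of 16179, 1793 of 16096, 1832 of 16086 and 2236 of 31658. The other gene that rose, HIST1H1A, lost its call without PIK75 replicate 1 or 2 or STA9090+PIK75 replicate 1 or 2.

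Relative to STA9090, STA9090 with BGT226 lowered 60 of the 68 genes and raised 1, where 20.9% of all genes tested fell and 19.5% rose, and 55 of the falls held under every alternative run. The gene that rose was HIST2H2BD (log2 fold change 0.32, SE 0.09, adjusted p = 0.00823), a call lost without STA9090+BGT226 replicate 3. Relative to BGT226, STA9090 with BGT226 lowered 27 of the 68 genes and raised 0 by edgeR or DESeq2. Of all genes tested 1.7% fell and 0.988% rose by edgeR. The 27 were 1 of 5 H1, 6 of 16 H2A, 14 of 21 H2B, 2 of 13 H3 and 4 of 13 H4 genes, and the median log2 fold change of the 68 was -0.60, against 0.01 over all genes. HIST1H2BI was at 36.8, 44.4 and 40.4 CPM with STA9090 and BGT226 and 75.9, 78.1 and 74 CPM with BGT226, with no overlap (log2 fold change -0.91, SE 0.17, adjusted p = 0.00556). HIST3H2BB was at 24.7, 21.9 and 22.9 CPM with STA9090 and BGT226 and 43.2, 41.7 and 38.9 CPM with BGT226, also without overlap (log2 fold change -0.83, SE 0.14, adjusted p = 0.00212). Among the 27 called, the largest fall, of HIST2H2AA3 (-1.25), rests on how counts were divided with HIST2H2AA4. The summed pair gave -0.47 ± 0.15 (SE; adjusted p = 0.114). Leaving out any 1 of the 6 libraries lowered the count of falls to between 4 (without BGT226 replicate 2) and 10 (without BGT226 replicate 3 or STA9090+BGT226 replicate 1), with 7, 5 and 9 without BGT226 replicate 1, STA9090+BGT226 replicate 2 and STA9090+BGT226 replicate 3. Over all genes, 268 fell, against 99 to 157 with 1 library left out. The count for the 68 was 60 with these groups compared alone, where 808 of all 14911 genes tested fell, and 60 without the filter on low counts, where 479 of 31658 fell. The log2 ratios of the class sums were -0.48 (H4) to -0.59 (H3), with no overlap in any class.

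Whether a combination differed from the sum of its parts was tested as an interaction over the libraries of 4 groups. For STA9090 with PIK75, edgeR called 0 of the 68 genes in either direction, where 3.54% of all genes tested were above the sum and 5.73% below it. DESeq2 called 0, where it called 497 above and 915 below of all 15787 genes tested. An unadjusted p under 0.05 was found for 4 of the 68. For STA9090 with BGT226, edgeR called 0 of the 68, where 0.00633% of all genes were above and 0% below. DESeq2 called 4 of the 68 below, where it called 18 of all 15787 genes tested below. An unadjusted p under 0.05 was found for 44 of the 68. Neither count at an unadjusted p has a share over all genes to set beside it. The median interaction on the log2 scale was -0.22 with PIK75 and -0.58 with BGT226 over the 68 genes. Over all genes it was -0.02 and 0.00, and 65 of the 68 were negative with BGT226. Set against the sum of the single agents' log2 ratios, the class sums differed by -0.47 (H4) to -0.59 (H2A) for STA9090 with BGT226 and by -0.18 (H2B) to -0.27 (H2A) for STA9090 with PIK75, without a test. Without the filter on low counts the counts below the sum were 12 for PIK75 and 47 for BGT226, where 1006 and 187 of all 31658 genes tested were below it. For PIK75 it was 3 without untreated replicate 2, 1 without PIK75 replicate 1 and 1 without STA9090+PIK75 replicate 1. Over all genes tested these counts were 891 of 16136, 677 of 16114 and 637 of 16168.

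Also summed before the fit were 6 pairs of clustered genes, those in which at least 1 gene shares over 50% of its stretches with the other. With STA9090 and BGT226 all 6 summed pairs fell relative to untreated cells, with log2 fold changes of -0.84 to -1.38 and adjusted p of 6.11e-06 to 0.000285 by edgeR. HIST2H3C and HIST2H3A, 2 H3 genes, show why the single values are uncertain, since the share of their counts given to HIST2H3C ran from 9.1% to 84.8% across libraries. Among the STA9090+BGT226 replicates that share was 9.1%, 44.5% and 81.8%, while the pair summed to 525, 459 and 497 CPM. In untreated cells the pair summed to 834, 1208 and 738 CPM, above each of those. HIST2H3C alone was called lower (log2 fold change -1.41, adjusted p = 0.0386 by edgeR), a call lost by DESeq2 and without any of the untreated replicates or STA9090+BGT226 replicate 1 or 2. The summed pair gave -0.92 ± 0.17 (SE; adjusted p = 0.000285). HIST1H2AD, at 8.18, 18.9 and 105 CPM with PIK75 against 79.2, 20.6 and 37.4 CPM in untreated cells, was highest in PIK75 replicate 3 of its group. With the pairs merged, 12 of the genes became 6 units, so these counts are out of fewer than 68. The genes or pairs lower than untreated numbered 24 for PIK75, 36 for BGT226, 48 for STA9090 with PIK75 and 58 for STA9090 with BGT226. In the fit without merging, 10.2%, 15.7%, 20.1% and 20.4% of all genes tested fell in these groups.

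**Figure D4:**
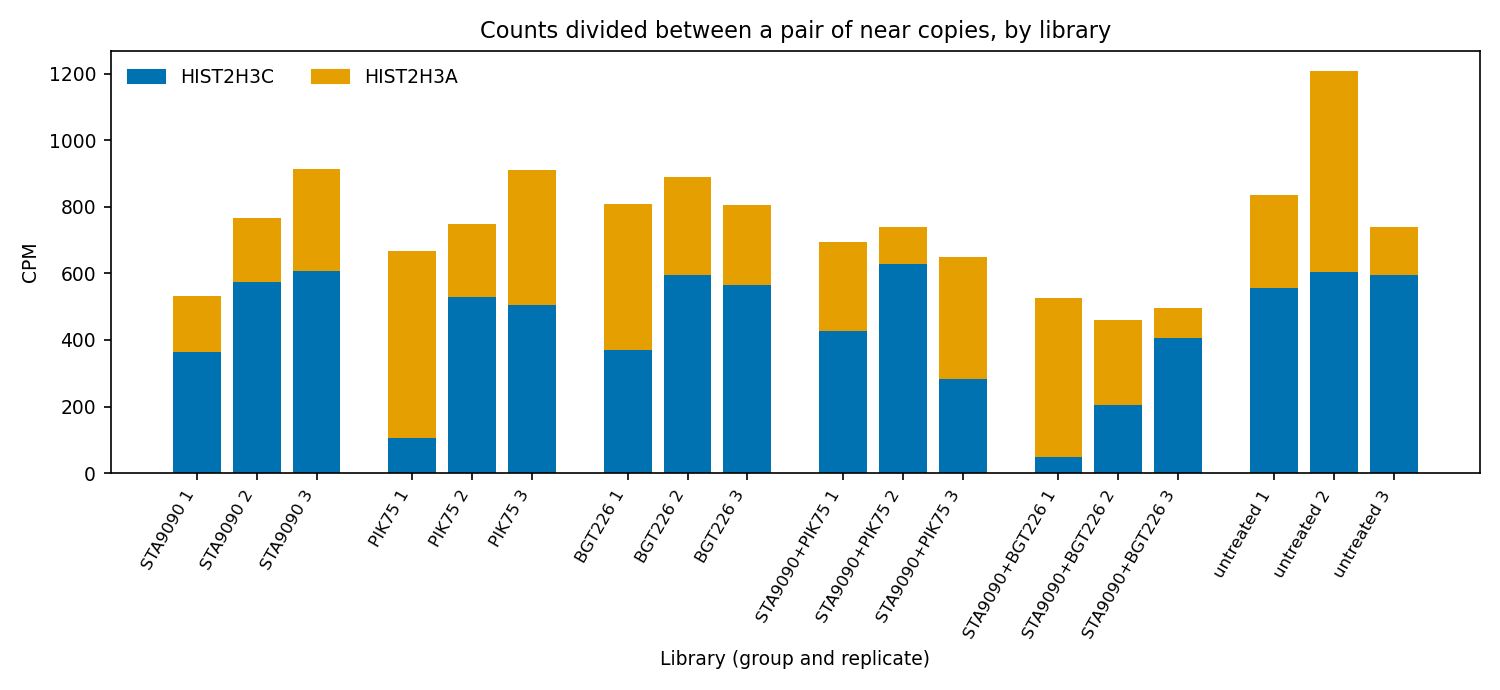
CPM (bar height, from 0) given to the near copies HIST2H3C and HIST2H3A in each of the 18 libraries, stacked, by group and replicate. The split moves from 9.1% to 84.8% in HIST2H3C, while the 3 STA9090+BGT226 totals are the lowest of the 18.

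Genes of S phase and DNA replication, of which all 40 listed were tested, were set beside the histones. With BGT226 28 of the 40 fell, and with STA9090 and BGT226 36 fell, where 15.7% and 20.4% of all genes tested fell, and the list's medians were -0.36 and -0.65 against 0.01 and 0.03 over all genes. With PIK75 8 fell and 1 rose, where 10.2% of all genes fell and 8.49% rose, and with STA9090 and PIK75 15 fell and 4 rose, where 20.1% fell and 18.3% rose. RRM2, the ribonucleotide reductase subunit that supplies deoxynucleotides, was at 89.6, 87.6 and 74.1 CPM with PIK75, 102, 98.1 and 100 CPM with BGT226, 66.7, 57.5 and 73.8 CPM with STA9090 and PIK75, 65.5, 60 and 73.8 CPM with STA9090 and BGT226, and 154, 158 and 150 CPM in untreated cells. It fell in all 4 groups, and both combinations lay lower than either inhibitor alone. PCNA, the sliding clamp of DNA polymerases, was at 57.7, 65.2 and 62.1 CPM with PIK75, 48.8, 41.7 and 45.2 CPM with BGT226, 49.5, 54.7 and 54.6 CPM with STA9090 and PIK75, 36.6, 34.6 and 38.8 CPM with STA9090 and BGT226, and 72, 71.7 and 64.5 CPM in untreated cells. PCNA fell with BGT226 (-0.62), STA9090 and PIK75 (-0.39) and STA9090 and BGT226 (-0.92), and its PIK75 value did not pass (log2 fold change -0.17, SE 0.08, adjusted p = 0.125). The cyclin genes CCNE1 and CCNA2 fell with STA9090 and BGT226 (-0.35 and -0.47), as did E2F1, a transcription factor of S phase entry (-1.11), and the proliferation marker MKI67 (-0.41), while CCNE2 did not pass (log2 fold change -0.12, SE 0.14, adjusted p = 0.546). With STA9090 and PIK75 the list had 10 falls without STA9090+PIK75 replicate 2 and 2 rises without untreated replicate 1. In those fits 2705 of all 16096 genes tested fell and 2395 of all 16129 rose. The part of cell cycle distribution in the histone differences was not tested.

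Of 12 listed histones encoded outside the clusters 11 were tested. With BGT226 3 fell and 2 rose, where 15.7% of all genes tested fell and 12.8% rose, and with STA9090 and BGT226 5 fell and 2 rose, where 20.4% fell and 19.4% rose. With STA9090 and PIK75 7 fell and with PIK75 1 fell, where 20.1% and 10.2% of all genes did. Without the filter on low counts 1 rose in place of 2 with BGT226 and with STA9090 and BGT226. In that fit 1799 and 2782 of all 31658 genes tested rose. H2AFZ, which encodes H2A.Z, was at 144, 176 and 165 CPM with STA9090, 145, 164 and 159 CPM with PIK75 and 85.8, 82.2 and 85.2 CPM with BGT226. It was at 108, 123 and 123 CPM with STA9090 and PIK75, 64.2, 69 and 64.4 CPM with STA9090 and BGT226, and 131, 178 and 135 CPM in untreated cells. BGT226 and STA9090 with BGT226 lay below all others (log2 fold change -0.81, SE 0.10, adjusted p = 7.04e-06, and log2 fold change -1.17, SE 0.10, adjusted p = 4.01e-08), and PIK75 was inside the untreated range. H1F0, the linker histone of non-dividing cells, was at 49.3, 52 and 48.5 CPM with PIK75, 103, 103 and 110 CPM with BGT226, 33.6, 28.8 and 32.7 CPM with STA9090 and PIK75, 109, 118 and 110 CPM with STA9090 and BGT226, and 88.5, 81.2 and 76.4 CPM in untreated cells. It fell with PIK75 (-0.72) and STA9090 and PIK75 (-1.37) and rose with BGT226 (0.36) and STA9090 and BGT226 (0.45), so PIK75 and BGT226 lay on opposite sides of untreated cells (log2 fold change -1.08, SE 0.07, adjusted p = 1.74e-09). H2AFX, the H2A variant phosphorylated at DNA breaks, fell with STA9090 and BGT226 (log2 fold change -0.81, SE 0.11, adjusted p = 1.17e-05). H3F3A, an H3.3 gene, fell with STA9090 and PIK75 (log2 fold change -0.43, SE 0.09, adjusted p = 0.000962), and the other H3.3 gene, H3F3B, had log2 fold changes of -0.07 to 0.13 in the 5 comparisons, with adjusted p of 0.155 to 0.775 by edgeR.

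**Figure D5:**
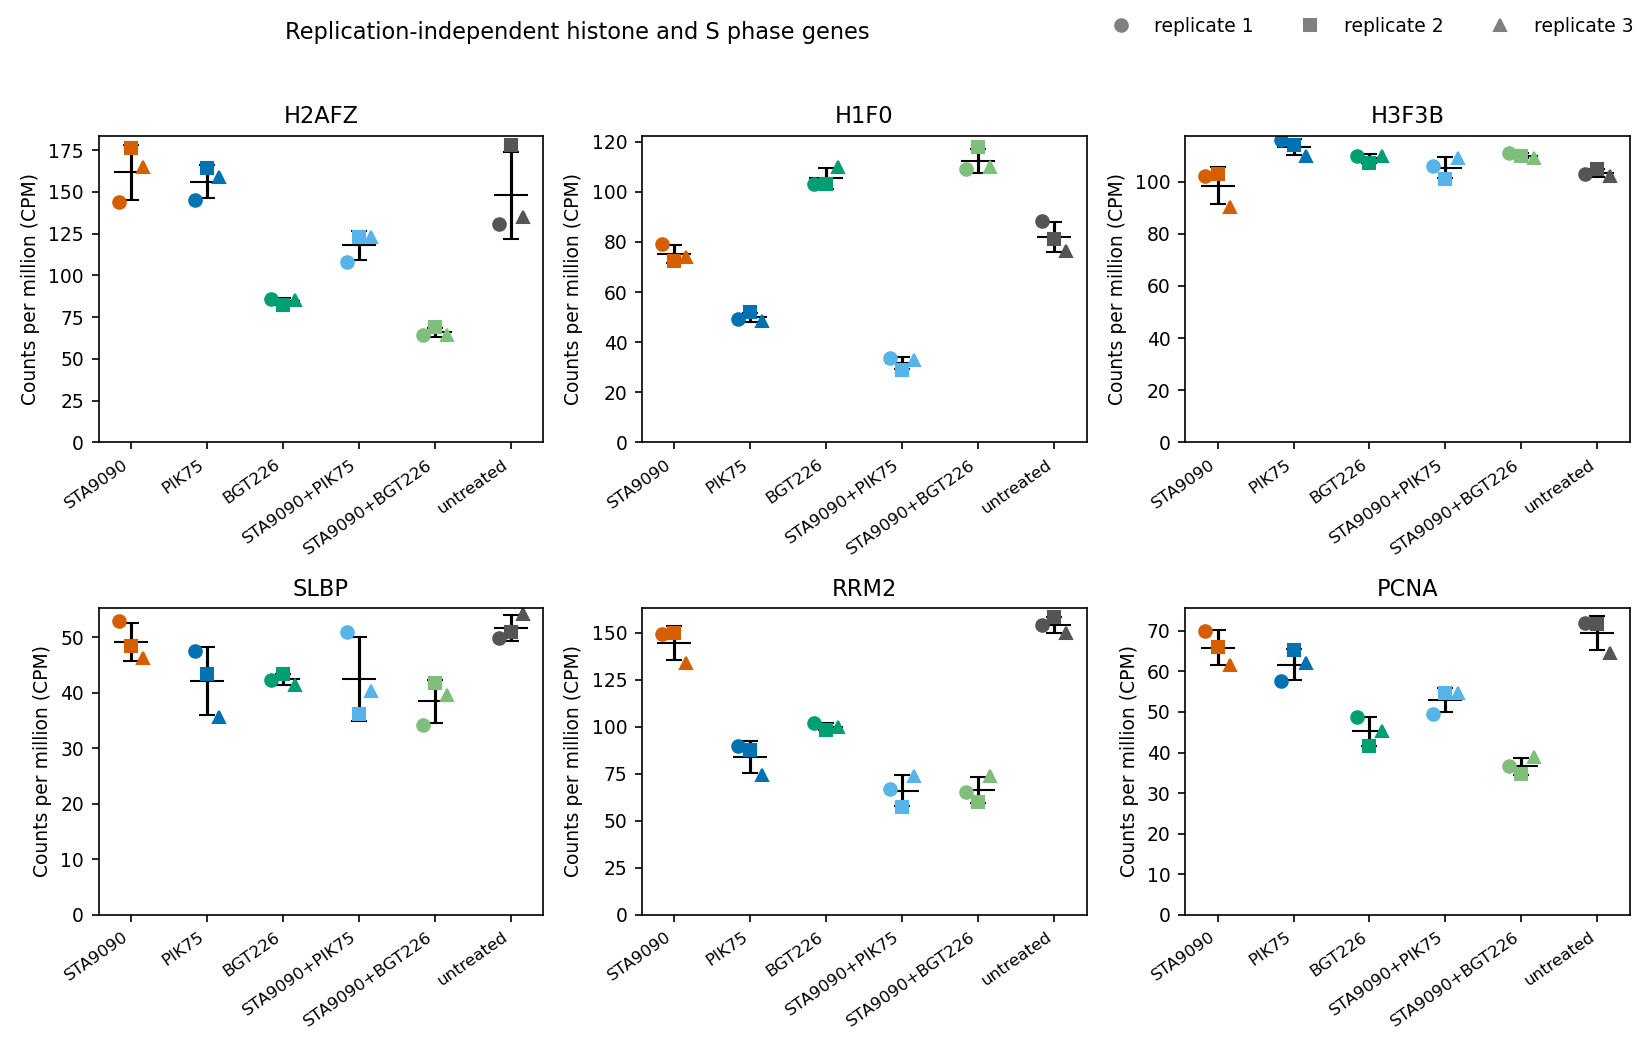
CPM (vertical axes, starting at 0) of 3 replication-independent histone genes, SLBP, RRM2 and PCNA in each library, by group, with the mean and SD of 3 replicates. H1F0 is between 109 and 118 CPM with STA9090+BGT226 and between 28.8 and 33.6 CPM with STA9090+PIK75, on either side of the 76.4 to 88.5 CPM of untreated cells.

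Of 30 listed genes for histone pre-mRNA processing and histone gene transcription 26 were tested. With BGT226 6 rose and 8 fell, beside 12.8% and 15.7% of all genes tested, and with STA9090 and BGT226 9 rose and 10 fell, beside 19.4% and 20.4%. With STA9090 and PIK75 7 rose and 7 fell, beside 18.3% and 20.1% of all genes, and with PIK75 2 rose and 5 fell, beside 8.49% and 10.2%. SLBP, the stem-loop binding protein, was at 34.2, 41.7 and 39.7 CPM with STA9090 and BGT226 and 49.9, 51 and 54.3 CPM in untreated cells, without overlap (log2 fold change -0.42, SE 0.11, adjusted p = 0.00449). NPAT, the coactivator of the clusters, went the other way, higher with BGT226 (log2 fold change 0.40, SE 0.12, adjusted p = 0.0131) and with STA9090 and BGT226 (log2 fold change 0.39, SE 0.12, adjusted p = 0.0106). These NPAT calls were lost without BGT226 replicate 3 and without STA9090+BGT226 replicate 2. ZNF473, the zinc finger protein of the processing complex, rose with BGT226 (0.83), STA9090 and PIK75 (1.07) and STA9090 and BGT226 (0.98), while SNRPB, a protein shared by spliceosomal particles and the processing particle, fell in these groups (-0.78, -0.44 and -0.85). With PIK75 and untreated cells compared alone 1 fell, where 1066 of all 14682 genes tested did. Without the filter on low counts none rose with PIK75, where 1311 of all 31658 did. The counts with STA9090 and PIK75 were 4 higher and 4 lower without untreated replicate 3, where 2253 and 2843 of all 16192 were.

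All 22 listed histone chaperones, which carry histones to DNA or remove them, were tested. With BGT226 13 fell and 1 rose, set against 15.7% and 12.8% of all genes tested, and with STA9090 and BGT226 14 fell and 2 rose, set against 20.4% and 19.4%. With STA9090 and PIK75 7 fell and 1 rose, set against 20.1% and 18.3% of all genes, and with PIK75 1 fell and 1 rose, set against 10.2% and 8.49%. CHAF1B, a subunit of the assembly factor CAF-1, fell with BGT226 (log2 fold change -0.77, SE 0.09, adjusted p = 5.32e-06) and with STA9090 and BGT226 (log2 fold change -0.71, SE 0.09, adjusted p = 6.45e-06). RBBP7, a histone-binding protein, fell in both groups (-0.48 and -0.66), and SSRP1, a subunit of the FACT complex, did so too (-0.36 and -0.60). NAP1L1, a carrier of H2A and H2B, rose with BGT226 (log2 fold change 0.67, SE 0.11, adjusted p = 0.000173). The BGT226 count of 13 was 6 without BGT226 replicate 3, and the STA9090 and PIK75 count of 7 was 4 without STA9090+PIK75 replicate 1. In those fits 1850 of all 16117 and 2730 of all 16168 genes tested fell.

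Of the clustered genes, 12 are listed as also giving polyadenylated transcripts, among them HIST1H1C, HIST1H2AC, HIST1H2BC, HIST1H2BD, HIST1H4H and HIST2H2BE. Of these 7 fell with PIK75, 8 with BGT226, 11 with STA9090 and PIK75 and 10 with STA9090 and BGT226, beside 25, 39, 49 and 61 of the 68. Over all genes tested, 10.2%, 15.7%, 20.1% and 20.4% fell in these groups. The medians of the 12 were -0.54, -0.53, -0.67 and -1.01 on the log2 scale, beside -0.40, -0.54, -0.64 and -1.10 for all 68. Without untreated replicate 2 the counts were 3 for PIK75 and 3 for BGT226, where 1390 and 1966 of all 16136 genes tested fell. The libraries were made from RNA depleted of ribosomal RNA, so transcripts with and without a tail were both counted.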

How the data were processed

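RNA was sequenced from 18 libraries of NCI-H295R cells, made as stranded total RNA depleted of ribosomal RNA and read as paired ends, per the labels' protocols. The deposited values are the authors' expected counts, which RSEM estimates for each gene and which are not normalized. Per the submitters' processing notes the tools were RSEM 1.3.1, STAR 2.7.0f, cutadapt 1.18 and bcl2fastq 2.20, with build hg38. The annotation release and strand setting were not stated. GENCODE 29, which holds 99.54% of the table's IDs, was used for coordinates and transcripts.

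The expected counts were rounded, which changed library totals by at most 0.000381%. Genes were kept by edgeR's filter (minimum count 10, minimum total 15), which left 15787. Depth limits precision for the genes with few counts. A model with 1 mean per group over all 18 libraries (edgeR 4.0.16, R 4.3.3, TMM factors 0.9034 to 1.1318, biological coefficient of variation 10.58%) gave 13 comparisons by the quasi-likelihood F-test, with p adjusted by Benjamini-Hochberg over all genes tested. The SE is the log2 fold change over the square root of F. The procedure was tested on simulated data.

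The histone genes and the other lists were chosen with earlier results of these data known. Any tested histone gene could be named. Library values were given for the 4 most counted genes of a class and the 6 largest rises and falls called in a comparison. From each other list, up to 4 genes of smallest adjusted p in a comparison could be named, with SLBP, NPAT, H2AFZ, H2AFX, H3F3A, H3F3B, H1F0, PCNA, RRM2, CCNE1, CCNE2, CCNA2 and MKI67 in any case. HIST2H3C and HIST2H3A were chosen for display after their values were seen. Alternatives tried were a filter of 1 CPM in 3 libraries, no filter, RLE size factors, DESeq2 1.42.0, a fit to each comparison's groups alone, a block for the replicate number, leaving out the 50 genes with most counts, and leaving out each library. Merging near copies and the alternatives for the other lists' genes were chosen after seeing the data.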

Additional observations from a re-analysis of the deposited data

Results flagged for a closer look

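In genes outside the clusters, STA9090 with PIK75 differed from the sum of the single agents, by the edgeR interaction test, for 14 of the listed genes named here. Over all genes tested 3.54% were above the sum and 5.73% below it. Of 11 histones encoded outside the clusters 0 were above and 5 below, and of 26 processing and transcription genes 3 were above and 1 below. Of 22 chaperones 1 was above and 0 below, and of 40 S phase genes 3 were above and 1 below. The interactions are on the log2 scale, where a negative value is a level below the sum. Among histones made outside S phase the values were -0.82 for CENPA, -0.53 for H1F0, -0.52 for H2AFZ, -0.46 for H3F3A and -0.41 for H2AFV (adjusted p = 0.00303, 0.00309, 0.0241, 0.0281 and 0.0466). Among genes for histone processing and transcription they were 0.84 for ZNF473, 0.47 for GON4L, 0.45 for UPF1 and -0.40 for DHX9 (adjusted p = 0.000208, 0.00598, 0.0154 and 0.0286). Among chaperone and S phase genes they were 0.43 for CHAF1A, 0.49 for CDC45, -0.49 for CCNA2, 0.39 for MCM10 and 0.39 for MCM5 (adjusted p = 0.00978, 0.00316, 0.00925, 0.0451 and 0.0482). The calls of H2AFZ, H3F3A, H2AFV, DHX9, MCM10 and MCM5 were lost under several alternatives each, among them the comparison of these groups alone and the fits without untreated replicate 1 or PIK75 replicate 2. The other 8 held under every alternative run.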

How the results depend on the processing

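No called histone value changed direction under any alternative run. With 1 library left out, the PIK75 log2 ratios ran from -0.55 to -0.23 for all classes, -0.53 to -0.16 for H2A and -0.51 to -0.06 for H3, and each was nearest 0 without untreated replicate 2. Of 371 called values of single genes, 3 were lost with RLE size factors, 2 without the filter, 1 with the stricter filter, 15 by DESeq2, 9 with the groups compared alone and 17 with the replicate number as a block. Without untreated replicate 2, 51 of 178 were lost.

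Without the filter on low counts, the genes called against untreated cells were 2 higher and 5 lower with STA9090, 3 higher and 49 lower with PIK75 and 1 higher with STA9090 and PIK75. Over all 31658 genes tested, these counts were 369, 400, 1311, 1691 and 2725, in the same order. That fit also gave 1 higher for STA9090 with PIK75 against STA9090 and 28 lower against PIK75, and 2 higher for STA9090 with BGT226 against STA9090 and 60 lower against BGT226. All genes tested gave 2641, 2236, 2842 and 479 in turn. The same fit gave 24 higher for PIK75 against BGT226, 45 higher for STA9090 with PIK75 against STA9090 with BGT226, 1 and 12 above and below the sum for the PIK75 interaction and 47 below it for BGT226. All genes tested gave 2612, 3365, 556, 1006 and 187 in turn. With the groups compared alone the counts were 60 lower for STA9090 with BGT226 against BGT226, 15 higher for PIK75 against BGT226 and 44 higher between the combinations. All genes tested gave 808 of 14911, 2701 of 14814 and 3561 of 15030. DESeq2 gave 1 lower for STA9090 and 4 below the sum for the BGT226 interaction, where 393 and 18 of all 15787 genes tested were. With the 50 most counted genes left out, 1 was lower for STA9090 and 1 higher for STA9090 with PIK75, where 282 and 2769 of all 15738 genes tested were. The cause of these shifts was not tested.

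With 1 library left out, the counts against untreated cells ranged over 0 to 1 higher and 0 to 1 lower for STA9090, 0 to 2 higher and 12 to 33 lower for PIK75, 20 to 43 lower for BGT226 and 0 to 1 higher for STA9090 with PIK75. Over all genes tested, 16081 to 16202 in these fits, the counts were 32 to 211 and 76 to 277 for STA9090. For PIK75 they were 853 to 1257 and 1222 to 1390, for BGT226 1850 to 2242 and for STA9090 with PIK75 2253 to 2577. The histone counts ranged over 1 to 2 higher and 2 to 12 lower for STA9090 with PIK75 against PIK75, 0 to 1 higher for STA9090 with BGT226 against STA9090, 4 to 10 lower against BGT226, 0 to 9 higher for PIK75 against BGT226, 1 to 3 lower for STA9090 with PIK75 against STA9090 with BGT226, and 0 to 3 below the sum for the PIK75 interaction. All genes tested gave 1300 to 1496, 1776 to 1929, 2571 to 2801, 99 to 157, 1922 to 2278, 2951 to 3255 and 605 to 894, in that order.

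Libraries with the same replicate number did not deviate together over all genes (correlations of -0.172 to 0.15). Whether the numbers mark a batch or a pairing is not given in the sources used here. With the replicate block, 22 genes were lower with PIK75, 38 with BGT226, 47 with STA9090 and PIK75, 61 with STA9090 and BGT226, and 19 for STA9090 with BGT226 against BGT226. All 15787 genes tested gave 1534, 2437, 3107, 3171 and 229, in that order.

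Counts divided among near copies limit single genes more than sums, and few counts limit HIST4H4 and HIST1H4K.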
